A study of Mus musculus with 6 samples.

Results

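The retinoid genes described here are 9 genes of retinoic acid synthesis, retinoid binding and retinoid transport, taken by symbol from a table of 22869 genes with a symbol in sorted mouse pituitary cells. They are Aldh1a1, Aldh1a2 and Aldh1a3, Rbp4, Ttr and Stra6, Crabp1 and Crabp2, and Cyp26b1. Ttr was picked because its values differed between the cell types, so its difference is given as a description with no test. The other 8 were chosen by function, though with earlier results of these data known. RNA was sequenced from somatotropes, which secrete growth hormone, and lactotropes, which secrete prolactin, separated by fluorescence-activated cell sorting (FACS), with 3 libraries of each, numbered 1 to 3. The donors were females, 6 to 8 weeks old, of a CD1 x C57BL/6 hybrid background, and the labels name no treatment. The titles call them biological replicates. The sort marker and any pooling of animals were not given in the sources used here. Accordingly, p-values cover the spread among the 6 libraries alone.

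Retinoic acid is made from vitamin A (retinol) inside cells. Retinol travels in blood on the binding protein RBP4, which is carried by transthyretin (TTR), and in many tissues it enters cells through the receptor STRA6. Retinol dehydrogenases oxidize it to retinal, and the ALDH1A enzymes oxidize retinal irreversibly to retinoic acid. CRABP1 and CRABP2 bind retinoic acid in the cytoplasm, CYP26 enzymes degrade it, and the nuclear receptors of the RAR and RXR families carry its signal to genes. In the pituitary, retinoic acid is known to act on the growth hormone gene and on the gene of the lineage factor POU1F1.

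Levels are FPKM, a fragment count corrected for the length of the transcript and the size of the library. Levels of different genes are set side by side on that basis. For part of the genes, the ratio between transcripts of the same gene differed in replicate 1, as described with Rbp4. Levels of different genes are therefore less certain in replicate 1. Of the 9 genes, 5 averaged 1 FPKM or more across all 6 libraries and belong to the 11642 tested genes, and the other 4 averaged less and were not tested. Aldh1a1, Aldh1a2, Rbp4 and Crabp2 averaged 1 FPKM or more in each cell type, and Ttr reached the minimum only through the somatotropes. The number of fragments behind the values is not given in the files. Of 5 markers of the sorted cells, Gh and Ghrhr were higher in somatotropes, and Prl, Drd2 and Pou1f1 in lactotropes, in each of the 3 pairs. Gh exceeded Prl in every somatotrope library and Prl exceeded Gh in every lactotrope library. Each hormone was still high in the other cell type. Prl was at 10464, 8709 and 24481 FPKM in somatotropes 1 to 3, beside 25171 FPKM in lactotrope 2. Gh was at 3954 to 7623 FPKM in lactotropes. In lactotrope 3, 14.9% of the tested genes were listed at 0, where the remaining 5 libraries had 0.232% to 2.95%, so a 0 in that library is given as listed and not as absence. Libraries sharing a replicate number also shared part of their deviation from the group mean, and differences are therefore also given within each pair of the same number.

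The sequences before the transcript starts of Aldh1a1, Aldh1a2 and Rbp4 are shown because these were the 3 most abundant of the 9 genes by mean, and because the table holds Rbp4 as 2 transcripts with separate starts whose values are compared below. Promoters of 6 of the 9 genes were matched by symbol in RefSeq sequences on GRCm38.p6, and the table's own coordinates are on mm9. Each run is the 250 bases before the start, 5′ to 3′, and capitals mark, on either strand, the promoter box CCAAT, the box of the TATA-binding protein spelled TATAAA, and a hexamer of the retinoid receptors. The 4 hexamers searched were AGGTCA (in 14.0% of promoters), the spelling AGTTCA (in 11.8%), the spelling GGGTCA (in 11.6%) and the spelling GGTTCA (in 8.85%).
Aldh1a1, chr19:20601718-20601967, plus strand: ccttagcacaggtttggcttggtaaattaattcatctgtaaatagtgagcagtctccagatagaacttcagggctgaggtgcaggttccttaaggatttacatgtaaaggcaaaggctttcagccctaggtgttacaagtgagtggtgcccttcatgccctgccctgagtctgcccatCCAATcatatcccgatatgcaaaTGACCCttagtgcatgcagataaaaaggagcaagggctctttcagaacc
Aldh1a2, chr9:71215539-71215788, plus strand: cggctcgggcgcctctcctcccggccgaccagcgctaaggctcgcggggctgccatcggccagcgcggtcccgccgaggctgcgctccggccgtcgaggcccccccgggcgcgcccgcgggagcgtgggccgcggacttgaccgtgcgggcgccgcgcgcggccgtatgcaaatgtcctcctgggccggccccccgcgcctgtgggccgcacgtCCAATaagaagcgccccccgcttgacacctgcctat
Rbp4, the transcript used for its level, chr19:38124812-38125061, minus strand: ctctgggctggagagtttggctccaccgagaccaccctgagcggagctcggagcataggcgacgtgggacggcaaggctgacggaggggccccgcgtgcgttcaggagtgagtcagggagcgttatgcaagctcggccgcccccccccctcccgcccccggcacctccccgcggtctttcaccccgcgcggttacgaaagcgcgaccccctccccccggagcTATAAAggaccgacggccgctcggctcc
Rbp4, the longer transcript, chr19:38125322-38125571, minus strand: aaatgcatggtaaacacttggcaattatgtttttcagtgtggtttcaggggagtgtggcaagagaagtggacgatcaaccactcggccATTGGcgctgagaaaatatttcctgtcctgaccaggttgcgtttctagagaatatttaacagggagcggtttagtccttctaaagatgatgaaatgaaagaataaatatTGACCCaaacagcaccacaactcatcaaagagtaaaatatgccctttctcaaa

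Aldh1a1 and Aldh1a2 each held a CCAAT on the plus strand of the gene, starting 72 and 36 bases before the start, and the longer Rbp4 transcript held one on the opposite strand, 162 bases before it. CCAAT stood on either strand in 33.8% of 32851 RefSeq promoters of this length. A retinoid hexamer in the spelling GGGTCA stood on the opposite strand of Aldh1a1, 49 bases before the start, and of the longer Rbp4 transcript, 53 bases before it, and one or more of the 4 spellings stood in 38.6% of promoters. A TATAAA lay 28 bases before the start of the Rbp4 transcript used, and in 12.4% of promoters. The base composition differed as well, with G or C at 70.8% before the Rbp4 start used, 40.8% before the longer transcript, 46.4% for Aldh1a1 and 77.6% for Aldh1a2. Pairs of hexamers in direct repeat with a gap of 1, 2 or 5 bases, the arrangements that RAR and RXR bind, stood in 0 of the 11 promoter windows matched to the 9 genes and in 0.164%, 0.174% and 0.0883% of all promoters. These matches describe the letters in the window and say nothing about binding.

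Aldh1a2 had the highest mean of the 9 genes. It encodes a retinaldehyde dehydrogenase that is the main source of retinoic acid in much of the embryo, and its row lies on mm9 chromosome 9 from 71063596 to 71144050 on the plus strand. Aldh1a2 read 24.8, 55.2 and 67.7 FPKM across somatotropes 1 to 3, against 17.0, 37.6 and 5.08 FPKM across lactotropes 1 to 3. Every somatotrope library was above the lactotrope library of the same number, but the groups overlapped, since lactotrope 2 was above somatotrope 1. The means were 49.2 ± 22.1 FPKM (SD, n = 3) among somatotropes and 19.9 ± 16.4 FPKM (SD, n = 3) in lactotropes. Within pairs, the somatotrope level of Aldh1a2 was 1.46, 1.47 and 13.3 times the lactotrope level, so pairs 1 and 2 were close to each other and pair 3 was far larger. The share of tested genes below Aldh1a2 was 82.9%, 96.5% and 97.7% for somatotropes 1 to 3, and 74.4%, 95.7% and 67.6% for lactotropes 1 to 3.

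Aldh1a1 encodes a related retinaldehyde dehydrogenase that also oxidizes other aldehydes. Its row lies on mm9 chromosome 19 from 20676472 to 20717952 on the plus strand. Aldh1a1 read 13.0, 57.5 and 24.7 FPKM across somatotropes 1 to 3, against 4.80, 15.9 and a listed 0 FPKM across lactotropes 1 to 3. Replicate 2 was the highest library of each cell type, every pair had the higher value in the somatotrope, and the groups overlapped only in that lactotrope 2 was above somatotrope 1. The means of Aldh1a1 were 31.8 ± 23.1 FPKM (SD, n = 3) among somatotropes and 6.90 ± 8.15 FPKM (SD, n = 3) in lactotropes. Somatotropes had 2.71 times the lactotrope level in pair 1 and 3.62 times in pair 2, and pair 3 gives no ratio because of the listed 0. Aldh1a1 averaged 23.2 FPKM over the other 5 libraries, and of the 2738 tested genes with such a mean between 10 and 30 FPKM, 65 (2.37%) were listed at 0 in lactotrope 3. On the log2(FPKM + 1) scale, the pair differences of Aldh1a1, somatotrope minus lactotrope, were 1.27, 1.79 and 4.69, and 98.2%, 99.5% and 99.9% of tested genes had a smaller difference in the same pair. The value for pair 3 rests on the listed 0. Over the pairs, such shares ran from 74.75% to 99.36% for Aldh1a2, from 74.27% to 99.55% for Rbp4 and from 57.58% to 97.76% for Crabp2. Aldh1a7, a closely related copy of Aldh1a1 on the same chromosome, was listed at 0.166 FPKM in somatotrope 1, at 0.0110 FPKM in somatotrope 2 and at 0 in the other 4 libraries, and how fragments shared between the copies were assigned was not given in the sources used here.

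Aldh1a3, the third enzyme of the family, was close to 0 throughout. It was listed at 0.332 FPKM in somatotrope 1 and at 0 in the other 5 libraries. Aldh1a2 was above Aldh1a1 in 5 of 6 libraries, and somatotrope 2 was the exception with a ratio of 0.959. In the other libraries where a ratio could be formed, Aldh1a2 was 1.91 and 2.74 times Aldh1a1 in somatotropes 1 and 3, and 3.53 and 2.36 times Aldh1a1 in lactotropes 1 and 2. The difference of levels, Aldh1a2 over Aldh1a1, was 1.28 ± 0.88 on the log2(FPKM + 1) scale (SD, n = 6 libraries). Aldh1a2 thus made up 49.0% to 73.2% of the sum of both in somatotropes, 77.9% and 70.3% in lactotropes 1 and 2, and all of it as listed in lactotrope 3.

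**Figure D1:**
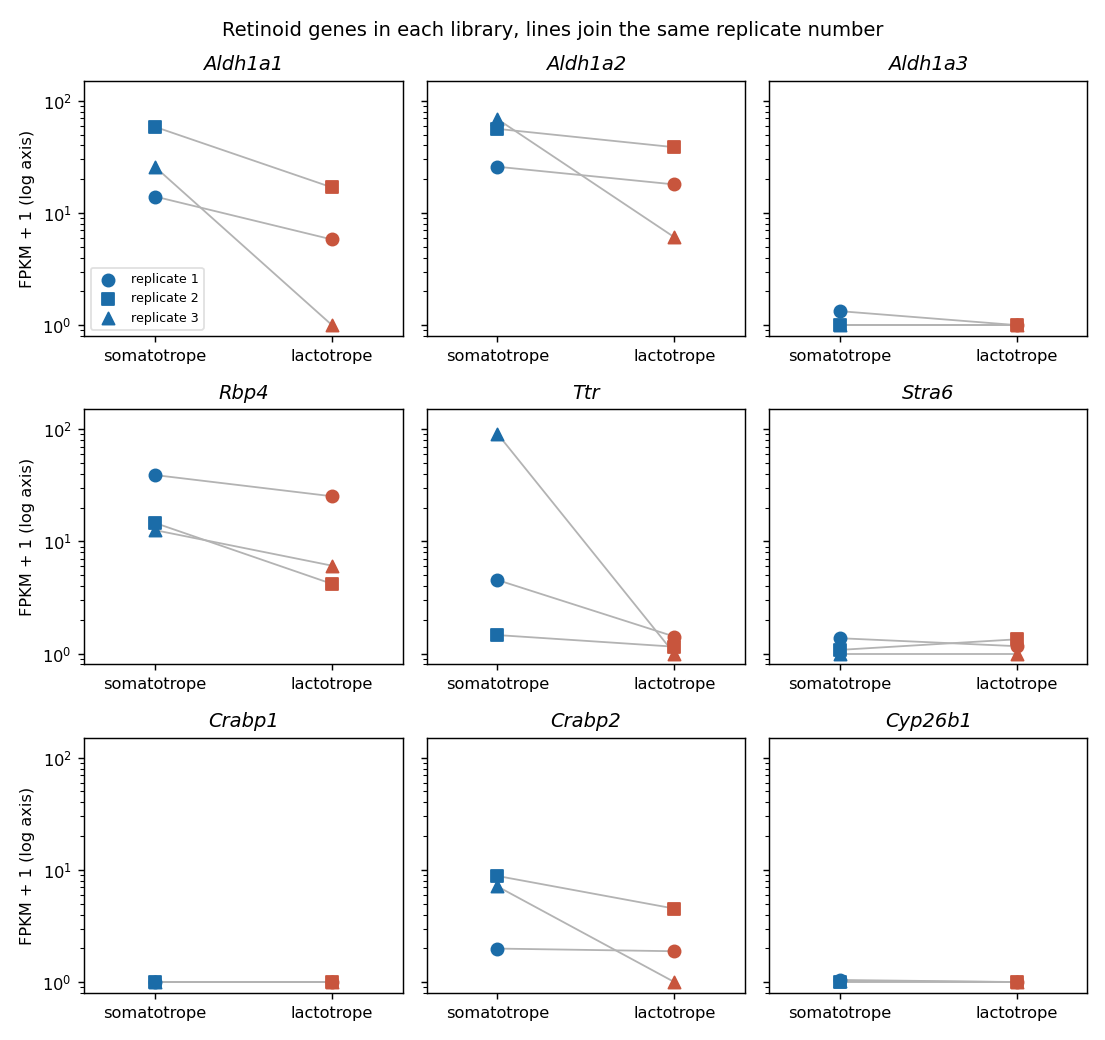
FPKM + 1 on a log axis for each of the 9 retinoid genes in each library, with blue for somatotropes, red for lactotropes, 1 symbol shape per replicate number and grey lines between libraries of the same number. In the panels of Aldh1a1, Aldh1a2, Rbp4, Ttr and Crabp2 every line falls from somatotrope to lactotrope, while Aldh1a3, Stra6, Crabp1 and Cyp26b1 lie at or near 1, which is an FPKM of 0.

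Rbp4, the blood carrier of retinol, is made mostly by liver and fat. Its row lies on mm9 chromosome 19 from 38191110 to 38199301 on the minus strand. Rbp4 read 38.1, 13.6 and 11.6 FPKM across somatotropes 1 to 3, against 24.3, 3.18 and 5.08 FPKM across lactotropes 1 to 3. Replicate 1 was the highest library of each cell type, and lactotrope 1 was above somatotropes 2 and 3, so the groups overlapped although every pair had the higher value in the somatotrope. The somatotrope level of Rbp4 was 1.57, 4.28 and 2.28 times the lactotrope level in pairs 1 to 3. Rbp4 thus differed from the ALDH1A enzymes in which libraries were highest.

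How far replicate 1 stood above the others for Rbp4 differed between its transcript rows. The row used (NM_011255) was 1.31 and 1.32 times the longer row (NM_001159487) in somatotrope 1 and lactotrope 1, but 0.748, 0.752, 0.754 and 0.752 times it in somatotropes 2 and 3 and lactotropes 2 and 3. The longer row read 29.0, 18.2 and 15.4 FPKM across somatotropes 1 to 3, against 18.4, 4.22 and 6.75 FPKM across lactotropes 1 to 3. The ratio between cell types was nearly the same in both rows, since the longer row gave 1.58, 4.31 and 2.29 for pairs 1 to 3. Over 1066 genes with 2 rows above 0.5 FPKM in every library, the log2 ratio of the rows was equal to within 0.02 in 72.9% of genes between the libraries of replicate 1 and in 69.9% to 73.5% between libraries of replicates 2 and 3. Between replicate 1 and the others it was equal in 56.1% to 60.0% of genes. The cause was not tested.

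**Figure D2:**
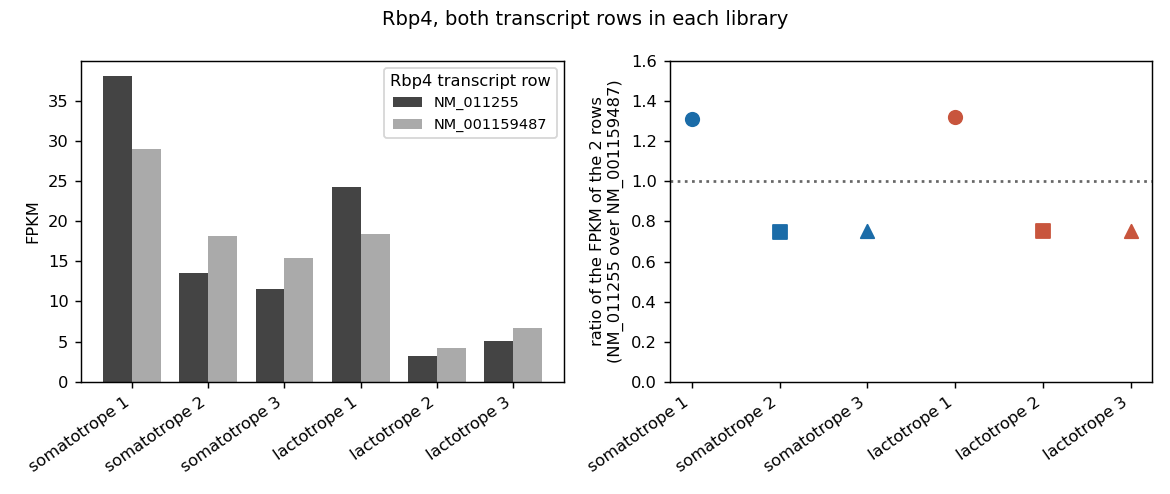
FPKM of both Rbp4 transcript rows in each library (left, bars from 0) and the ratio of the row used to the longer row (right, blue somatotropes, red lactotropes, 1 symbol per replicate number, dotted line at 1). The ratio is 1.31 and 1.32 in replicate 1 and between 0.748 and 0.754 in the other 4 libraries.

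Ttr encodes transthyretin, the carrier of thyroxine and of the RBP4-retinol complex in blood and cerebrospinal fluid, abundant in liver and choroid plexus. Its row lies on mm9 chromosome 18 from 20823751 to 20832827 on the plus strand. Ttr read 3.53, 0.462 and 90.4 FPKM across somatotropes 1 to 3, against 0.418, 0.152 and a listed 0 FPKM across lactotropes 1 to 3. The lowest somatotrope library was just above the highest lactotrope library, and nearly all of the somatotrope mean came from somatotrope 3. The log2 difference of Ttr was 2.84 with all libraries and 1.13 without somatotrope 3. Only 4 of 11642 tested genes had at least 20 FPKM in somatotrope 3 and at least 10 times the level of every other library. They were Ttr at 25.6 times the next library, Ngp and Camp, which encode granule proteins of neutrophils, at 63.9 and 24.5 FPKM, and Alas2, which encodes the haem synthesis enzyme of red cell precursors, at 26.7 FPKM. Ngp, Camp and Alas2 were named after their values were seen. Ttr was picked for its difference, which came mostly from somatotrope 3, so its place among the 4 is no separate result. No such count was made for the other libraries.

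Markers of choroid plexus epithelium, where Ttr is a leading transcript, are given beside it. Of 10 such markers, 4 were tested and 0 passed limma. Of the 4, 2 were higher in somatotropes in all 3 pairs, which held for 22.9% of all tested genes. Kcnj13, a potassium channel gene and 1 of these 2, reached the minimum mean of 1 FPKM only through the somatotropes (2.38 against 0.028 FPKM). So did Steap1, also among the 4 tested (2.55 against 0.202 FPKM). The count was thus partly fixed by the filter. Among the 10, 5 had their highest value in somatotrope 3, 3 were under 1 FPKM in every library and 9 were listed at 0 in lactotrope 3. Of those 5, only Kcnj13 averaged 1 FPKM or more. The share of all genes with their highest value in somatotrope 3 was not computed, so the 5 cannot be weighed. The others were highest in somatotrope 1 (Kl, Steap1, Kcne2 and Tmem72) or in somatotrope 2 (Folr1, at 87.8 FPKM against 50.7 FPKM in somatotrope 3). Kcnj13 stood at 6.20 FPKM in somatotrope 3 and at 0 to 0.673 FPKM in the other libraries. The summed level of the list ran from 39.3 to 90.7 FPKM in somatotropes and from 6.09 to 48.0 FPKM in lactotropes. Folr1, a folate receptor gene, had the highest mean of the list, at 50.6 ± 37.3 FPKM among somatotropes and 20.8 ± 21.9 FPKM among lactotropes (SD, n = 3). In somatotrope 1 it was at 13.2 FPKM, below Kl, the gene of the co-receptor klotho, at 16.5 FPKM. The part of other cells in the Ttr values was not tested.

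Stra6, the receptor for retinol uptake, was at most 0.371 FPKM in every library. It was listed at 0.371, 0.0785 and 0 FPKM across somatotropes 1 to 3, against 0.164, 0.340 and 0 FPKM across lactotropes 1 to 3, with no order between the cell types.

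Crabp2 delivers retinoic acid to the nuclear receptor RAR, and its row lies on mm9 chromosome 3 from 87752615 to 87757294 on the plus strand. Crabp2 read 0.988, 7.83 and 6.12 FPKM across somatotropes 1 to 3, against 0.882, 3.52 and a listed 0 FPKM across lactotropes 1 to 3. Replicate 1 was low in both cell types and nearly equal between them, with a ratio of 1.12, and pair 2 had a ratio of 2.23. Crabp2 averaged 3.87 FPKM over the other 5 libraries, and of the 4724 tested genes with such a mean between 3 and 10 FPKM, 665 (14.1%) were listed at 0 in lactotrope 3, so its 0 there was not rare. Aldh1a2 was above Crabp2 in 6 of 6 libraries, by 3.10 ± 0.41 on the log2(FPKM + 1) scale (SD, n = 6). Crabp1, the other cytoplasmic binding protein, was listed at 0 in all 6 libraries.

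Cyp26b1, an enzyme that degrades retinoic acid, was listed at 0.0436, 0 and 0.0219 FPKM across somatotropes 1 to 3, against 0, 0.00290 and 0 FPKM across lactotropes 1 to 3. The related degrading enzymes were as low, with Cyp26a1 at 0.0160 FPKM in lactotrope 2 and at 0 elsewhere, and Cyp26c1 at 0.0190 FPKM in somatotrope 2, 0.0457 FPKM in lactotrope 2 and 0 elsewhere. Transcripts of the 3 clearance enzymes were thus at most 0.0457 FPKM in libraries where Aldh1a2 reached 5.08 to 67.7 FPKM.

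In the order of means, Aldh1a2 was followed by Aldh1a1, Rbp4, Ttr, Crabp2, Stra6, Aldh1a3, Cyp26b1 and Crabp1. Of the 8 neighbouring steps, only those from Aldh1a2 to Aldh1a1 and from Crabp2 to Stra6 were larger than their own SD over the 6 libraries. Aldh1a1 and Rbp4 did not differ beyond their spread, with a difference of -0.19 ± 2.12 on the log2(FPKM + 1) scale (SD, n = 6), Aldh1a1 being higher in 3 libraries and Rbp4 in 3. Nor did Ttr and Crabp2, at -0.02 ± 2.27 (SD, n = 6). Aldh1a2, with the highest mean, also did not differ from Rbp4 beyond the spread, at 1.08 ± 1.65 (SD, n = 6). Aldh1a2 was higher in 3 libraries and Rbp4 in 3.

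The comparison of somatotropes with lactotropes was tested with limma over all 11642 genes on the log2(FPKM + 1) scale. It called 0 genes, 0% of those tested, at an adjusted p of 0.05. The 4 tested genes other than Ttr had differences, somatotrope minus lactotrope, of 2.58 (SE 0.93) for Aldh1a1, 1.52 (SE 0.71) for Aldh1a2, 1.29 (SE 0.83) for Crabp2 and 1.16 (SE 0.76) for Rbp4. None of the 4 passed (limma adjusted p = 1.00 for each). At an unadjusted limma p under 0.05, which 0.962% of all genes had, there was 1 of the 4, Aldh1a1. With the replicate number as a block limma also called 0 genes, and at an unadjusted p under 0.05 it had all 4, higher in somatotropes, where 7.17% of all genes were in that direction. With array weights limma called 0.0773% of all genes, and with weights and block 0.369%, and 0 of the 4 in either. All 4 were higher in somatotropes in each of the 3 pairs, which held for 22.9% of all tested genes. The groups of libraries overlapped for each of the 4, and separation of all somatotropes above all lactotropes was found for 2.51% of tested genes, and the reverse for 1.15%. An exact permutation test of a single gene cannot go below p = 0.1 with 3 against 3 libraries. In bulk libraries, fewer cells of a type and less RNA per cell cannot be told apart.

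Pair 3 gave the largest differences for Aldh1a1, Aldh1a2, Ttr and Crabp2, and pair 2 for Rbp4. In pair 3 the median difference over all tested genes was itself 0.36, against 0.00 and 0.12 in pairs 1 and 2. Without lactotrope 3, the library with many genes listed at 0, the difference was 1.48 for Aldh1a1, 0.82 for Aldh1a2 and 0.78 for Crabp2, each smaller by over 1.5 times. Crabp2 had 1.96 without somatotrope 1. Leaving out somatotrope 1 gave 0.65 for Rbp4, leaving out lactotrope 2 gave 0.64, and leaving out lactotrope 1 gave 1.94. The difference of Aldh1a2 was 0.53 with replicates 1 and 2 only. Median-ratio scaling and quantile normalization left the direction of each of these 4 genes as it was.

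**Figure D3:**
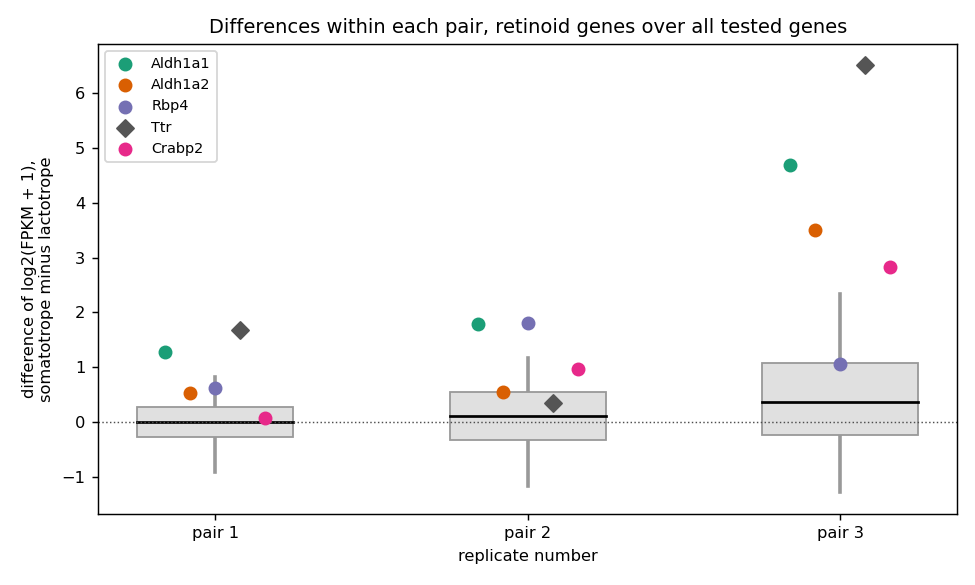
Difference of log2(FPKM + 1), somatotrope minus lactotrope, within each replicate pair. Boxes span the 25th to 75th percentile of the 11642 tested genes with the median as a line, grey lines run from the 5th to the 95th percentile, and coloured points are the retinoid genes, with Ttr as a diamond because it was picked for this difference; all 5 lie above 0 in each pair, and Aldh1a1 lies above the grey line in all 3.

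Aldh1a1, Aldh1a2 and Crabp2 followed each other over the libraries, and Rbp4 did not follow them. As a description over 6 libraries that share replicate numbers, the Pearson r of log2(FPKM + 1) was 0.961 for Aldh1a1 with Aldh1a2, 0.947 for Aldh1a2 with Crabp2 and 0.921 for Aldh1a1 with Crabp2. For Rbp4 it was 0.228 with Aldh1a1, 0.125 with Aldh1a2 and -0.081 with Crabp2. Among all tested genes, those with the highest r over the 6 libraries were Galm, Timp3 and Maob for Aldh1a1 (0.9952 to 0.9995), Nacc2, Zfp467 and Frat2 for Aldh1a2 (0.9916 to 0.9963), and 5430407P10Rik, Cdc42ep1 and Il17re for Crabp2 (0.9960 to 0.9982). For Rbp4 they were Gm10094, Evi5l and Dynll2 (0.9938 to 0.9951), and for Ttr they were Mgll, Ngp and Elane (0.9770 to 0.9814). Ttr was picked for a difference that came mostly from somatotrope 3, where Ngp also stood out, so its 3 genes are no separate result. These r are the 3 largest among 11642 genes over 6 points for each gene, and describe these libraries.

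The other genes of the pathway came from 5 lists of retinoid genes, which hold 50 genes with a row beside the 9, of which 22 were tested. None of the 22 passed limma, 6 (27.3%) were higher in somatotropes in all 3 pairs against 22.9% of all tested genes, and 1 (4.55%) was higher in lactotropes in all 3 against 11.2%. Their median log2 difference was 0.38, beside 0.18 over all tested genes. After median-ratio scaling these medians were 0.21 and 0.05. Those higher in somatotropes included Rdh10, Rdh14, Dhrs4, Rarb and Rarres2, and the 1 higher in lactotropes was Dhrs3.

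For retinol transport and storage, 3 of 11 genes were tested and none passed. Dgat1, which encodes an acyltransferase of triglyceride and retinyl ester synthesis, had 14.3 ± 1.02 FPKM among somatotropes and 12.2 ± 6.72 FPKM among lactotropes (SD, n = 3). Lpl, lipoprotein lipase, had 4.68 ± 4.53 and 3.86 ± 3.09 FPKM (SD, n = 3). Stra6l, the other retinol receptor, which the table lists under its older symbol, was not tested and reached 0.633 FPKM in somatotrope 3.

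Of the 21 genes that oxidize or reduce retinol and retinal, 10 were tested and none passed. Their median log2 difference was 0.0175, and after quantile normalization it was on the other side of 0, at -0.0878. The most abundant was Adh5, an alcohol dehydrogenase with a broad role, at 28.6 ± 8.98 FPKM among somatotropes and 20.7 ± 8.09 FPKM among lactotropes (SD, n = 3). Rdh14, a retinal reductase, had 16.1 ± 9.10 and 11.0 ± 5.96 FPKM, Dhrs4 13.7 ± 5.86 and 9.85 ± 4.14 FPKM, and Dhrs3, a retinal reductase that lowers retinoic acid formation, 7.45 ± 5.18 and 8.72 ± 5.73 FPKM (SD, n = 3). Rdh10, the dehydrogenase that supplies retinal to the ALDH1A enzymes, lies outside the rule for named genes and was named after its values were seen. It read 3.32, 10.9 and 4.13 FPKM across somatotropes 1 to 3, against 1.78, 2.14 and a listed 0 FPKM across lactotropes 1 to 3. Its 3 somatotrope libraries were thus above its 3 lactotrope libraries, which held for 2.51% of all tested genes. The log2 difference was 1.64 (SE 0.77, limma adjusted p = 1.00). Bco2, which encodes a carotenoid-cleaving enzyme and was also named after its values were seen, had the opposite sign, at 0.390 ± 0.206 FPKM among somatotropes and 2.14 ± 1.62 FPKM among lactotropes (SD, n = 3). Its log2 difference was -1.02 (SE 0.67, limma adjusted p = 1.00), and it was higher in lactotropes in 2 of 3 pairs. Bco2 reached the minimum mean of 1 FPKM only through the lactotropes, so the direction of its difference was partly fixed by the filter.

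Among 8 receptor genes, 6 were tested and none passed. Rxrg, which encodes the RXR gamma receptor, read 47.0, 6.43 and 2.80 FPKM across somatotropes 1 to 3, against 8.05, 2.21 and 3.14 FPKM across lactotropes 1 to 3, so somatotrope 1 stood far above the rest. Rxrb read 11.7, 9.37 and 10.6 FPKM across somatotropes 1 to 3, against 6.92, 10.5 and 0.481 FPKM across lactotropes 1 to 3. Fabp5, a fatty acid binding protein that also carries retinoic acid, averaged 9.42 ± 8.37 and 4.01 ± 2.34 FPKM (SD, n = 3). Rarb, the RAR beta receptor and itself a target of retinoic acid, read 6.41, 10.7 and 4.35 FPKM across somatotropes 1 to 3, against 2.39, 4.49 and a listed 0 FPKM across lactotropes 1 to 3. Its difference was 1.55 on the log2 scale (SE 0.79, limma adjusted p = 1.00), higher in somatotropes in 3 of 3 pairs, and the groups overlapped narrowly at lactotrope 2 and somatotrope 3. Without lactotrope 3 the difference of Rarb was 0.84.

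Genes known to respond to retinoic acid formed a list of 15, of which 3 are among the 9 genes and 6 others were tested. None passed. In all 3 pairs, 3 were higher in somatotropes (Rarb and Rarres2 among them), beside 22.9% of all tested genes. The 1 higher in lactotropes in all 3 was Dhrs3, beside 11.2% of all tested genes. Rarres2, which encodes the adipokine chemerin, had 16.0 ± 1.72 FPKM among somatotropes and 7.22 ± 3.19 FPKM among lactotropes (SD, n = 3). All its somatotrope libraries were above all its lactotrope libraries, which held for 2.51% of all tested genes. The transglutaminase gene Tgm2 had 6.15 ± 3.07 and 4.49 ± 3.60 FPKM, and the nuclear receptor co-repressor gene Nrip1 5.40 ± 4.66 and 5.14 ± 5.06 FPKM (SD, n = 3). Cdx1, a target in the embryo, was listed at 0 in all 6 libraries.

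**Figure D4:**
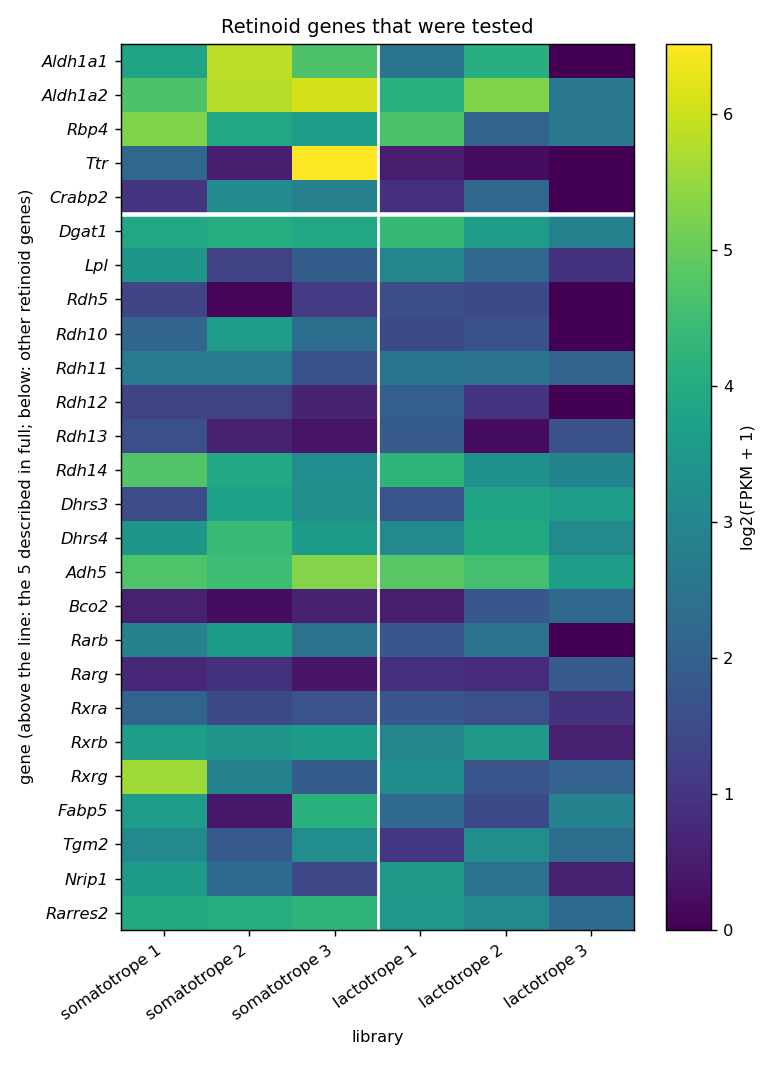
log2(FPKM + 1) in each library as colour, for the 5 retinoid genes described in full (above the white line) and other tested retinoid genes (below it), somatotropes on the left and lactotropes on the right. Ttr is bright only in somatotrope 3, Aldh1a2 is brightest in somatotropes 2 and 3 and lactotrope 2, Aldh1a1 in somatotrope 2, and lactotrope 3 is dark for several genes listed at 0.

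ALDH1A enzymes are also known in pituitary cells that make no hormone, so markers of other cells are given beside them. Of 10 markers of stem and folliculostellate cells, 7 were tested and none passed limma, 6 had the higher value in somatotropes in all 3 pairs and none in lactotropes. Their summed level ran from 304 to 1693 FPKM in somatotropes and from 143.9 to 657.9 FPKM in lactotropes, most of it from Mia1, a secreted protein gene, at 801 ± 653 and 214 ± 209 FPKM, and Cyp2f2, a cytochrome P450 gene, at 133 ± 52.9 and 67.1 ± 58.2 FPKM (SD, n = 3). The defining factor gene Sox2 was at 4.43, 7.68 and 3.56 FPKM for somatotropes 1 to 3, and at 2.12, 5.68 and 0.00410 FPKM for lactotropes 1 to 3. Sox9, another such gene, was at 1.53, 11.8 and 3.81 FPKM for somatotropes 1 to 3, and at 0.739, 4.24 and 1.98 FPKM for lactotropes 1 to 3. The groups overlapped for both genes. The sum of Aldh1a1 and Aldh1a2 was 37.8, 112.7 and 92.5 FPKM in somatotropes 1 to 3 and 21.8, 53.4 and 5.08 FPKM in lactotropes 1 to 3. It had its highest library of each cell type in replicate 2, as did the stem and folliculostellate, the leukocyte and the choroid plexus sums. Aldh1a2 alone was highest in somatotrope 3, at 67.7 FPKM against 55.2 FPKM in somatotrope 2. Within lactotropes, the sum of Aldh1a1 and Aldh1a2 was lowest in lactotrope 3. There the stem and folliculostellate sum was 169.7 FPKM, above its 143.9 FPKM in lactotrope 1. The part of these cells in the levels of the retinoid genes was not tested.

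Other marker lists are given by their sums. For comparison, 11.2% of all tested genes were higher in lactotropes in all 3 pairs. Leukocyte markers were higher in lactotropes in all 3 pairs for 8 of 8 genes, of which 0 passed limma, with sums of 269.9 to 5680 FPKM in somatotropes and 786.4 to 12290 FPKM in lactotropes, led by Cd74, an antigen presentation gene, and C1qb, a complement gene. Fibroblast and mural markers had 3 of 8 genes tested and sums of 29.4 to 63.8 and 21.8 to 74.7 FPKM, led by Col1a2 and Dcn, while Pdgfra, a defining receptor, was at most 0.126 FPKM in every library. Endothelial markers summed to at most 3.35 FPKM and pituicyte markers of the posterior lobe to at most 3.86 FPKM, led by Plvap and Emcn and by Col25a1 and Rax, and none of either list was tested. Markers of the other hormone cells summed to 515.5 to 7599 FPKM in somatotropes and 693.1 to 1705 FPKM in lactotropes, and were highest in somatotrope 3, the library with the high Ttr, where Pomc was at 5758 FPKM and Cga at 1675 FPKM. Erythroid markers were highest in replicate 3, at 2147 FPKM in somatotrope 3 and, in lactotrope 3, 1769 FPKM, led by Hba-a1 and Hbb-b1. Their part in the retinoid values was not tested.

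**Figure D5:**
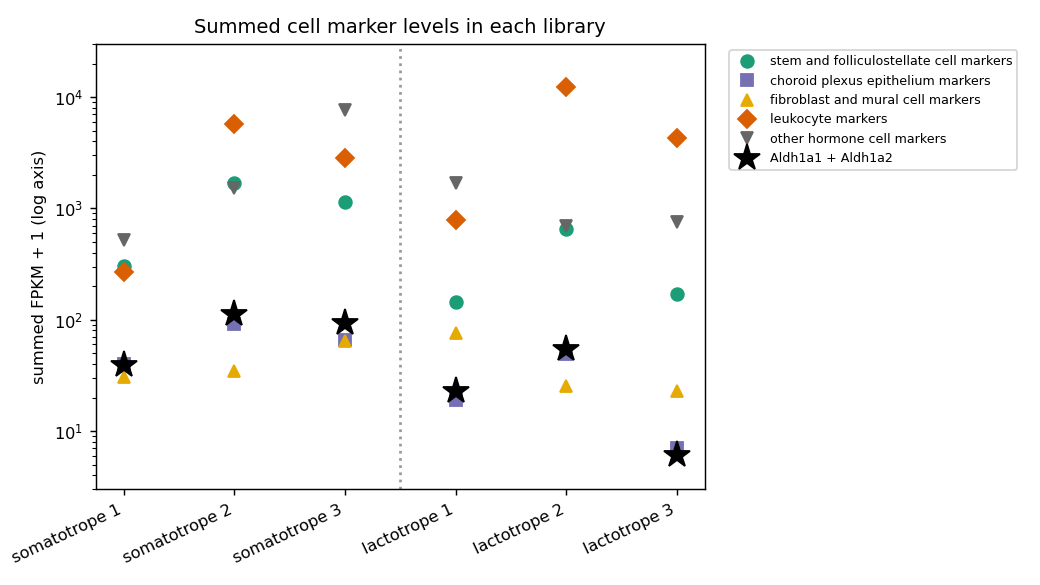
Summed FPKM + 1 on a log axis of 5 marker lists in each library, with the sum of Aldh1a1 and Aldh1a2 as black stars and a dotted line between the cell types. The stars run from 5.08 FPKM in lactotrope 3 to 112.7 FPKM in somatotrope 2, and within each cell type the stem and folliculostellate sum and the stars are both highest in replicate 2.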

How the data were processed

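FPKM values come from a single table that the authors deposited, holding 30399 transcript rows, whose library columns were assigned through the labels. Per the submitters' processing notes, the tools were TopHat, edgeR and bcl2fastq 2.17.1.14, and the genome build was mm9; the way fragments were counted was not given in the sources used here. Per the labels' protocols, sorted cells went into Trizol LS, and NuGen Ovation V2 was used for amplification. FPKM are not counts, so no count test was run. The 889 rows without a symbol were left out, and each of 22869 genes took its row with the highest mean. Those averaging 1 FPKM or more were tested as log2(FPKM + 1) by limma 3.58.1 (R 4.3.3) using an intensity trend, no block and Benjamini-Hochberg adjustment at 0.05; the code was tested on simulated data. On this scale the fold change of low genes is understated.

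Deviations from the group mean correlated between same-numbered libraries (0.763, 0.613 and 0.341 for numbers 1, 2 and 3), so the numbers in the titles were taken as pairs. The titles themselves state no pairing. Between libraries of different numbers the correlations ran from -0.631 to 0.233. The highest of these, somatotrope 3 with lactotrope 2, was near the value for number 3, so pair 3 is the least certain. The 9 genes, the 5 retinoid lists and the 9 marker lists were chosen with earlier results of these data known. Genes named are the 9, up to 4 of each retinoid list and 2 of each marker list by mean FPKM, Gh and Prl, and for each of the 5 tested genes the 3 with the highest correlation; Stra6l and a list gene named Bco1 were matched through synonyms. Other genes named were chosen after their values were seen. Some list genes are not reported here. Alternatives were other pseudocounts, no filter, other scalings, summed rows, the replicate block, array weights, and leaving out each library or pair.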

Additional observations from a re-analysis of the deposited data

How the results depend on the processing

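No alternative run made Aldh1a1, Aldh1a2, Rbp4 or Crabp2 pass limma over all genes, and each kept its direction in 18 of 18 alternatives. The adjusted p ran from 0.0884 to 1.00 for Aldh1a1, from 0.391 to 1.00 for Aldh1a2, from 0.143 to 1.00 for Rbp4 and from 0.434 to 1.00 for Crabp2, and the lowest for Aldh1a1 came with array weights and the replicate block. With the replicate block limma called 0 genes of all tested, 0 of the 4 and 0 of the 22 other retinoid genes, so the block changed no call; at an unadjusted p under 0.05 it had 10.9% of all genes and all 4 of these. The number of genes called over the whole table was 0 in the fit reported, 9 with array weights, 43 with array weights and the replicate block, and 0 to 3 with 1 library left out, 3 being without somatotrope 1. None of these calls was among the retinoid genes tested. Array weights gave lactotrope 2 a weight of 6.24 and lactotropes 1 and 3 weights of 0.292 and 0.492. Values near 0 depended on the pseudocount: with 0.1 the log2 difference was 0.70 for Aldh1a3 and 0.26 for Cyp26b1, against 0.14 and 0.03. The log2 difference of Ttr ran from 1.01 without pair 3 to 4.60 with a pseudocount of 0.1. The depth of the libraries is not given in the files, so no counting interval could be given.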
